A study of Saccharomyces cerevisiae and Saccharomyces pastorianus with 78 samples.

Results

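The a-specific genes of budding yeast are the small set that haploid cells of mating type a transcribe and that cells of mating type α keep silent. The 7 genes STE2 (YFL026W), STE6 (YKL209C), BAR1 (YIL015W), MFA1 (YDR461W), MFA2 (YNL145W), AGA2 (YGL032C) and ASG7 (YJL170C) were taken by their systematic names from the gene count table of Saccharomyces cerevisiae BY4741, a haploid laboratory strain of mating type a. They are 7 of its 7127 features, and all 7 were among the 6101 features that passed the filter on low counts.

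In a cells the general transcription factor Mcm1 activates these genes. In α cells and in diploids the repressor α2 binds beside Mcm1 on a shared operator and shuts them off with Tup1 and Cyc8. Their products make and export a-factor (MFA1, MFA2, STE6), sense α-factor (STE2), degrade α-factor outside the cell (BAR1) and bind the partner cell (AGA2). The product of ASG7 dampens pheromone signalling after cells fuse. Pheromone raises many of them further through Ste12, which binds the pheromone response element.

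Poly(A) RNA was sequenced from wild-type BY4741 grown in YPD at 25 °C, in 13 groups of 3 biological replicates. Of these, 6 groups had received 0.01% SDS, an anionic detergent, and 6 had received 7% EtOH. Sampling followed at 0.5 h and 1 h, at 2 h and 4 h, and at 8 h and 20 h. The 3 controls were taken at an OD595 of about 0.1, just before the addition, from the aliquot of each culture that then received EtOH. Both stresses therefore share these controls, the SDS aliquot has none of its own, and with no untreated culture at later times the stress and the time in culture cannot be told apart.

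The 39 libraries held 3105804 to 21167236 counts (median 7706767). Both extremes were EtOH 8 h libraries (replicate 3 the smallest, replicate 2 the largest), and the other groups ranged from 6410729 to 9396494. Member genes had 12 to 6430 counts per library. Replicate 3 of EtOH 20 h stood apart from its group, with a chi-square per gene of 227 and 125 against replicates 1 and 2, where all other replicate pairs gave 2.74 to 40.3. Test results of the member genes at EtOH 20 h and EtOH 8 h are therefore given with and without these libraries where they move. The fits without these libraries covered all genes, but only the results of the members were kept. Values of other genes and shares of all genes tested therefore rest on all replicates.

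Upstream of the genes, the sites through which mating type acts can be read directly. Shown here are the 7 operator matches, from the reference genome of build R64 (RefSeq), 5′ to 3′ in the direction of each gene. Capitals mark the α2 sites, TGT on one side and ACA on the other, and the Mcm1 core between them, from CC to GG with 6 bases between these.
STE2: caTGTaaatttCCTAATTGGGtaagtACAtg
STE6: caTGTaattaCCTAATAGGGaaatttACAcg
BAR1: caTGTaattaCCGTAAAAGGaaattACAtg
MFA1: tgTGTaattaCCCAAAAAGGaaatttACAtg
MFA2: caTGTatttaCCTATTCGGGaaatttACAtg
AGA2: caTGTaatttCCGAATACGGtaattACAcg
ASG7: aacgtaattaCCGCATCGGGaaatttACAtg
The matches lie at chrVI:82351-82381 for STE2, chrIX:322078-322107 for BAR1, chrIV:1384942-1384972 for MFA1 and chrXIV:352163-352193 for MFA2 on the plus strand. On the minus strand they lie at chrXI:46477-46507 for STE6, chrVII:437102-437131 for AGA2 and chrX:101905-101935 for ASG7.

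The pattern searched, on both strands, was TGT, 5 or 6 bases, CC, 6 bases, GG, 5 or 6 bases, ACA. In the 500 bases before the start codon it was present in 13 of 6019 genes (0.216%), and 6 of the 13 were a-specific genes. The pattern reads the same on both strands, so a site between divergent genes counts for both, and separate sites were not counted. ASG7 was the exception: its core has the ACA α2 site and no TGT at the matching distance. A core with at least 1 α2 site was present before 299 genes (4.97%), all 7 members among them. In the shorter window of 250 bases before to 50 bases after the start, the full pattern was present in 7 of 6020 promoters (0.116%), of which 4 were a-specific genes. The operators ended 126 bases (ASG7) to 269 bases (AGA2) before the start codon. A match is a description of these letters and was not tested for binding.

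The pheromone response element, TGAAACA on either strand, occurred in the same 500 bases of all 7 members, 2 times each in STE2, BAR1, MFA2 and AGA2 and 1 time each in STE6, MFA1 and ASG7. It was present before 722 of 6019 genes (12%). The element and the operator do not overlap in any of the 7.

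**Figure D1:**
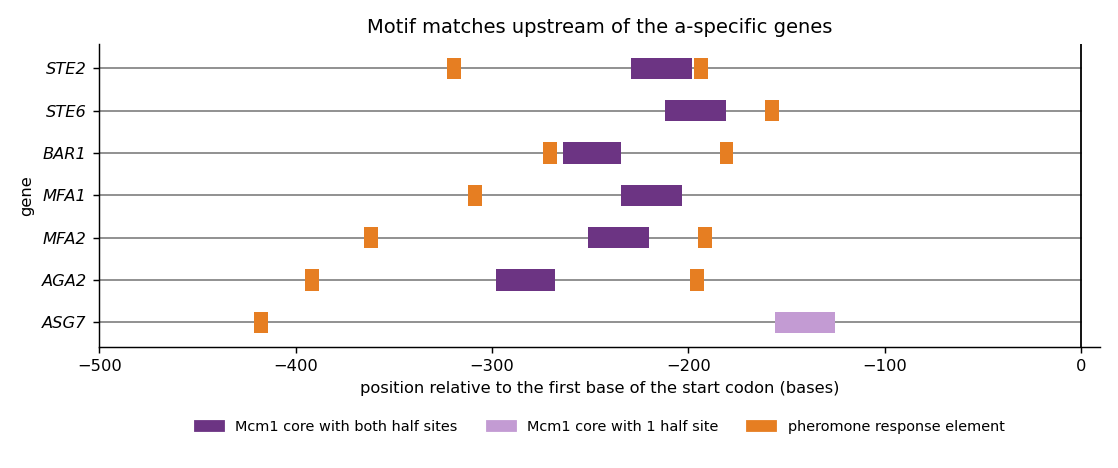
Position of motif matches in the 500 bases before the start codon of each a-specific gene, in bases from the first base of the start codon. Dark purple bars are Mcm1 cores with both α2 sites, the light purple bar is the core of ASG7 with 1 α2 site, and orange bars are pheromone response elements. The operators of the 7 genes all lie between 298 and 126 bases before the start.

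MFA1 and MFA2 both encode a-factor, and their coding sequences are shown because short, similar genes could share reads. Capitals mark the 12 codons of the mature pheromone, before farnesylation and carboxymethylation of its last residue.
MFA1: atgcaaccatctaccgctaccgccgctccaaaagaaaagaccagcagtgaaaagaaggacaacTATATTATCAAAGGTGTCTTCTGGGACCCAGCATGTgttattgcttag
MFA2: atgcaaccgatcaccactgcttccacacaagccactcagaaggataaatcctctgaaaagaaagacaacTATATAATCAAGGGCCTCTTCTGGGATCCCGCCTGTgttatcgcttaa
MFA1 lies at chrIV:1385176-1385286 (plus strand) and MFA2 at chrXIV:352414-352530 (plus strand). The coding sequences were identical at 82 of 119 aligned columns (68.9%), and at 29 of 36 bases of the mature part. Of the 12 mature codons, 5 were identical and 11 encoded the same residue. The longest run shared without a gap was 11 bases. None of the 7 genes contained a stretch of 50 bases found elsewhere in the genome, and 0 of the 7 overlapped another annotated gene.

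Before stress the members were unevenly expressed. Levels are given in CPM, the counts of a gene relative to the TMM-scaled total of its library, and different genes are compared in CPM per kilobase of coding length (CPM per kb). The order was MFA2 with 1204 ± 42.3, MFA1 with 669 ± 75.6, STE2 with 497 ± 27.9, BAR1 with 135 ± 4.69, STE6 with 105 ± 4.76, AGA2 with 101 ± 8.06 and ASG7 with 22.0 ± 3.82 CPM per kb (SD, n = 3). Neighbours in this order did not overlap between libraries, except STE6 and AGA2. This order rests on dividing by coding lengths of 111 and 117 bases for MFA1 and MFA2. Not divided by length, the control means were 644 CPM for STE2, 407 CPM for STE6, 238 CPM for BAR1, 141 CPM for MFA2, 74.3 CPM for MFA1, 26.5 CPM for AGA2 and 13.8 CPM for ASG7.

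The label of a cells was checked against markers of α cells. The α-factor gene MF(ALPHA)1 had 0 counts in 3 libraries and at most 1.61 CPM in the others, and STE3, the a-factor receptor of α cells, had 1.32 ± 0.127 CPM in the controls. The second α-factor gene, MF(ALPHA)2, had 7.18 ± 1.82 CPM in the controls and SAG1 had 40.9 ± 2.23 CPM. SAG1 was thus above the a-specific genes AGA2 (26.5 CPM) and ASG7 (13.8 CPM). The 7 a-specific genes summed to 1502 to 1624 CPM in the controls, against 46.5 to 52.2 CPM for the 4 α-specific genes, most of it from SAG1.

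After SDS the a-specific genes were low within 0.5 h and were still low at 20 h. A gene was called at a Benjamini-Hochberg adjusted p under 0.05 over all 6101 genes in edgeR's quasi-likelihood test, with a log2 change of at least 1 in size. By that rule 6, 6, 7, 7, 7 and 6 of the 7 genes were lower than in the controls over the 6 times in order, where 10.6%, 5.56%, 3.67%, 2.79%, 2.03% and 1.97% of all genes tested were called lower. STE6 was the gene that missed the size limit, with log2 changes of -0.95 ± 0.10 at 0.5 h, -0.97 ± 0.10 at 1 h and -0.91 ± 0.10 (SE) at 20 h and adjusted p of at most 1.07e-08. At 1 h the count of 6 fell to 4 without SDS 1 h replicate 2 (MFA1 -0.96, MFA2 -0.98) and to 5 without SDS 1 h replicate 1 (STE2 -0.999, MFA1 -0.99, while STE6 passed with -1.01) or control replicate 3 (MFA1 -0.97). At 20 h MFA2 missed the limit without SDS 20 h replicate 3 (-0.95). The median log2 change of the 7 was -1.18, -1.06, -2.0, -2.31, -1.77 and -1.32 over the 6 times. That of all genes tested, which the TMM scaling itself holds near 0, stayed between -0.01 and 0.02. At every one of the 6 times all 3 SDS libraries of all 7 genes lay below all 3 controls, as they did for 34.3%, 30.0%, 28.0%, 33.9%, 28.3% and 26.3% of all genes tested. In bulk RNA, fewer transcribing cells and less RNA per cell cannot be told apart.

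Among the a-factor genes, MFA2 reached the lowest share of its control level. It had 26.4, 21.2 and 17.6 CPM at 4 h of SDS, against 144, 143 and 135 CPM in the controls. The 4 h mean was 15.4% of the control mean, with a log2 change of -2.69 ± 0.16 (SE, adjusted p = 3.79e-15). MFA2 did not decline evenly: its mean (± SD of 3 libraries) was 54.2 ± 1.88 CPM at 0.5 h, 68.6 ± 6.72 CPM at 1 h, 28.9 ± 2.18 CPM at 2 h, 21.7 ± 4.43 CPM at 4 h, 43.9 ± 7.39 CPM at 8 h and 67.0 ± 10.2 CPM by 20 h. MFA1 had similar levels at 4 and 8 h, with means of 13.7 ± 1.70 and 13.5 ± 3.12 CPM. It had 16.9, 12.5 and 10.9 CPM at 8 h of SDS, against 65.3, 75.8 and 81.8 CPM in the controls, a log2 change of -2.46 ± 0.22 (adjusted p = 3.13e-10). At 20 h MFA1 stood at 27.0, 23.3 and 17.2 CPM, still below every control.

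STE6, the ABC transporter that exports a-factor, changed least of the 7 at each SDS time. Its 3 libraries at 4 h of SDS had 136, 138 and 125 CPM, against 398, 395 and 428 CPM in the controls, which left 32.7% of the control level (log2 change -1.61 ± 0.10, adjusted p = 1.06e-14). STE2, the receptor for α-factor, followed the same course more steeply. It had 133, 135 and 133 CPM at 4 h of SDS, against 627, 620 and 686 CPM in the controls (log2 change -2.27 ± 0.10, adjusted p = 2.89e-18). At 20 h STE2 was back at 293, 317 and 287 CPM, close to its 295, 293 and 300 CPM at 0.5 h.

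BAR1 encodes the secreted protease that cleaves α-factor. Its lowest level came at 8 h of SDS, with 53.4, 45.4 and 36.0 CPM, against 236, 232 and 247 CPM in the controls (log2 change -2.40 ± 0.14, adjusted p = 4.68e-15). Its 20 h libraries lay between 70.3 and 70.9 CPM.

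AGA2, the binding subunit of a-agglutinin, had 4.74, 5.90 and 5.35 CPM at 4 h of SDS, against 25.6, 25.0 and 29.0 CPM in the controls (log2 change -2.31 ± 0.20, adjusted p = 3.91e-11). It showed little return: at 20 h the libraries had 9.19, 5.61 and 6.46 CPM. ASG7 was the weakest gene of the set. It had 3.81, 2.57 and 3.69 CPM at 0.5 h of SDS, against 13.4, 11.7 and 16.5 CPM in the controls, a log2 change of -2.04 ± 0.32 (adjusted p = 1.52e-06). The ASG7 means at 1 and 2 h were 2.65 and 2.62 CPM, from 12 to 27 counts per library, so differences among its early SDS times rest on few reads.

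**Figure D2:**
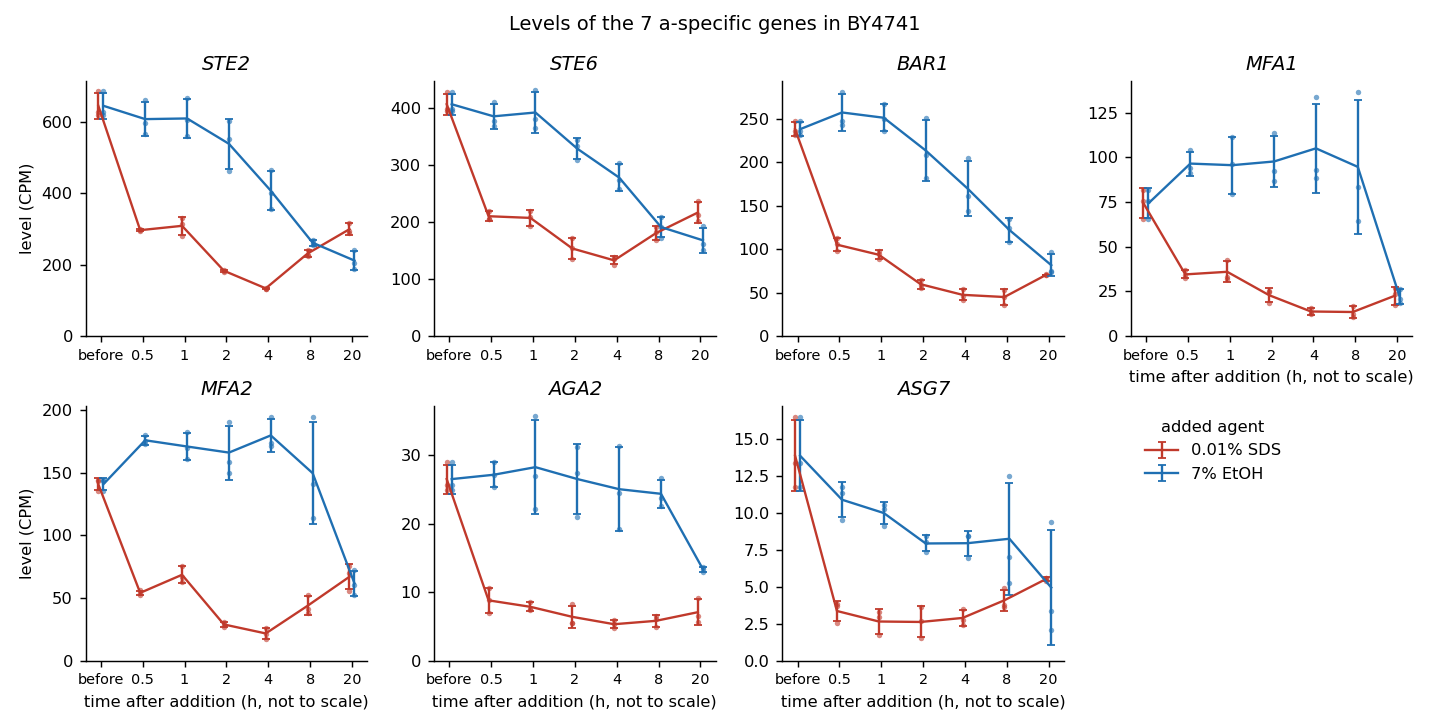
Level of each a-specific gene in CPM, each panel with its own axis from 0, in the controls taken before the addition and at 6 times after 0.01% SDS (red) or 7% EtOH (blue). Small points are libraries, lines join the means, bars are SD (n = 3), and both courses start from the same 3 controls. All SDS points lie below the controls in every panel, whereas the EtOH points of MFA1, MFA2 and AGA2 stay near or above them until 20 h.

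The later part of the SDS course was tested directly between times. From 0.5 to 4 h, 4 of the 7 genes fell further (4.02% of all genes tested were called lower): STE2 by 1.15 ± 0.10, BAR1 by 1.15 ± 0.13, MFA1 by 1.33 ± 0.23 and MFA2 by 1.31 ± 0.16 on the log2 scale, with adjusted p of at most 8.42e-06. STE6 and AGA2 had smaller differences of -0.66 and -0.72, and ASG7 had -0.21 (adjusted p = 0.657). From 4 to 20 h, STE2 rose by 1.16 ± 0.10 and MFA2 by 1.62 ± 0.16 (adjusted p = 1.14e-10 and 2.02e-09), where 0.688% of all genes tested were called higher. The other 5 had positive differences of 0.41 (AGA2, adjusted p = 0.162) to 0.93 (ASG7, adjusted p = 0.0346), and ASG7 passed the limit without SDS 4 h replicate 2 (1.1). At 20 h MFA2 had 47.6%, STE2 46.4% and STE6 53.3% of the control mean, but AGA2 26.7%, BAR1 29.6%, MFA1 30.3% and ASG7 39.9%.

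After EtOH most members stayed near their control level for the first hours, and the set was low at 20 h, with members out of step. No member was called at the first 4 times, where 1.26%, 1.25%, 1.28% and 1.72% of all genes tested were called lower. Without the size limit 3 members were lower by edgeR's adjusted p at 2 h (12.3% of all genes tested), and at 4 h 4 were lower (20.5%) and 2 higher (17.7%). An unadjusted p under 0.05 in edgeR was reached by 1, 0, 3 and 6 members. Shares of all genes are not given for it, so these counts are no result about the members. DESeq2 also called 0 at each of the 4 times. At 8 h, 2 were called lower (STE2 and STE6; 3.02% of all genes tested), and at 20 h 6 were (4.25%). The median log2 change of the 7 was 0.03, 0.08, -0.16, -0.49, -0.85 and -1.47 over the 6 times.

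STE2 and STE6 went down gradually. STE2 averaged (± SD of 3 libraries) 644 ± 36.2 CPM in the controls, 607 ± 48.1 CPM at 0.5 h, 609 ± 53.5 CPM at 1 h, 538 ± 69.8 CPM at 2 h, 407 ± 54.4 CPM at 4 h, 261 ± 8.22 CPM at 8 h and 211 ± 26.6 CPM by 20 h. Its libraries had 270, 254 and 260 CPM at 8 h of EtOH, far below every control (log2 change -1.30 ± 0.10, adjusted p = 9.17e-12). STE6 had 209, 192 and 173 CPM at that time, against 398, 395 and 428 CPM in the controls (log2 change -1.09 ± 0.10, adjusted p = 2.37e-10). BAR1 came close to the limit at 8 h, with 124, 108 and 134 CPM and a log2 change of -0.97 ± 0.13 (adjusted p = 2.56e-07). ASG7, the gene with the lowest level, had a lower mean than in the controls from the first time on. It had 78.5%, 72.0%, 57.2% and 57.3% of its control mean at 0.5, 1, 2 and 4 h of EtOH. Its log2 changes there were -0.35, -0.47, -0.81 and -0.80, under the size limit.

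MFA1 and MFA2 did not share the decline of the receptor at 4 h. MFA1 had 92.8, 88.5 and 134 CPM at 4 h of EtOH, against 65.3, 75.8 and 81.8 CPM in the controls. All 3 EtOH libraries lay above the controls, with a log2 change of 0.50 ± 0.20 (adjusted p = 0.0425), below the size limit. MFA2 had 171, 173 and 195 CPM at 4 h of EtOH, against 144, 143 and 135 CPM in the controls (log2 change 0.35 ± 0.14, adjusted p = 0.0479). Neither is stable: without EtOH 4 h replicate 3 MFA1 had 0.29 (adjusted p = 0.298) and MFA2 0.29 (adjusted p = 0.155). MFA1 also had an adjusted p above 0.05 without control replicate 1 (0.156) or 2 (0.0803), and MFA2 without any single one of the 6 libraries (0.063 to 0.155). For MFA2, EtOH libraries lay above all controls at the first 4 times, which held for 22.8%, 21.2%, 21.6% and 24.2% of all genes tested. At 8 h the a-factor genes were spread widely: MFA1 had 64.3, 83.3 and 136 CPM and MFA2 114, 141 and 194 CPM. The highest value of each came from replicate 3, the smallest library, and without it the log2 change of MFA1 was 0.00048 and that of MFA2 -0.14. Without replicate 3, BAR1 (-1.04) and ASG7 (-1.14) passed both limits at 8 h, making 4 called members.

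Between 4 and 20 h of EtOH the a-factor genes fell. MFA1 had 20.7, 18.7 and 26.6 CPM at 20 h, against 92.8, 88.5 and 134 CPM at 4 h, and fell by 2.25 ± 0.21 on the log2 scale (adjusted p = 1.78e-09). MFA2 fell by 1.54 ± 0.15 and BAR1 by 1.06 ± 0.13 over the same interval, where 3.34% of all genes tested were called lower. STE2 (-0.95), AGA2 (-0.90), STE6 (-0.73) and ASG7 (-0.67) had negative differences under the size limit. Without EtOH 20 h replicate 3 the difference of ASG7 was -1.54 and 4 members were called. STE2 and AGA2 passed as well without EtOH 4 h replicate 1 (-1.03 and -1.06), and STE2 without EtOH 20 h replicate 1 (-1.05). BAR1 missed the limit without EtOH 4 h replicate 3 (-0.90) or EtOH 20 h replicate 2 (-0.99), which left 2 called. From 0.5 to 4 h of EtOH 0 members were called in edgeR (0.0983% of all genes tested were called lower), although STE2, STE6 and BAR1 had adjusted p of at most 0.00146 with differences of -0.58, -0.47 and -0.60. An unadjusted p under 0.05 in edgeR was reached by these 3 (share of all genes not given, so no result about the members), and DESeq2 called 0.

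At 20 h of EtOH all 7 genes lay below all controls in every library, as did 27.8% of all genes tested. The log2 changes ran from -0.99 ± 0.18 for AGA2, just short of the limit, to -1.75 ± 0.21 for MFA1. AGA2 had 13, 13.5 and 13.7 CPM, against 25.6, 25.0 and 29.0 CPM in the controls. Without replicate 3, the library that stood apart, all 7 members were called, with log2 changes of -1.0 (AGA2) to -2.34 (ASG7). AGA2 also passed without control replicate 1 (-1.01) or 2 (-1.03). ASG7 was the member that EtOH 20 h replicate 3 moved most: it had 2.10 and 3.33 CPM in replicates 1 and 2 and 9.39 CPM in replicate 3.

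**Figure D3:**
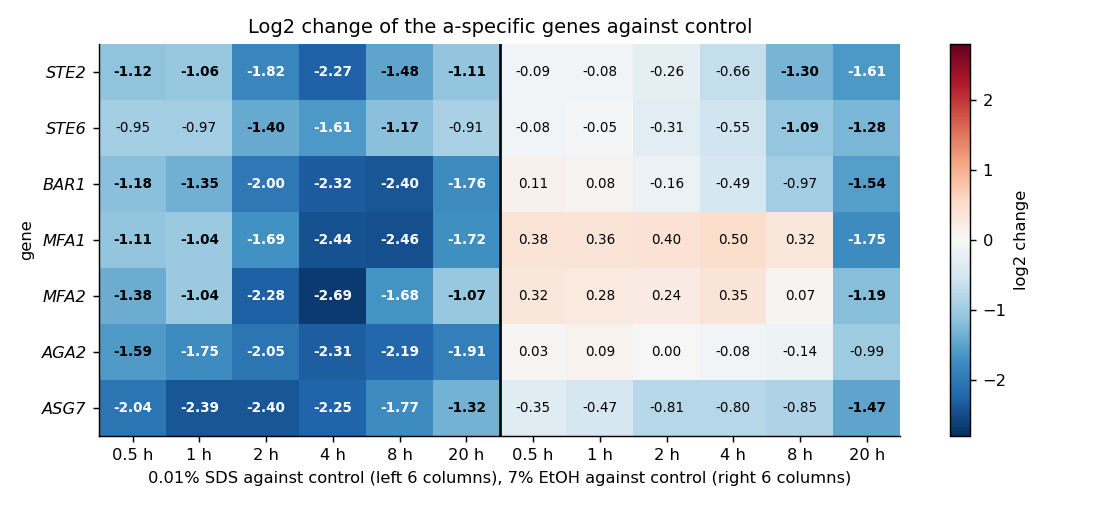
Log2 change of each a-specific gene (rows) against the same 3 controls, with SDS times in the left 6 columns and EtOH times in the right 6. Bold numbers passed both limits (adjusted p under 0.05 and a change of at least 1 in size), and colour runs from blue (lower) to red (higher). The left block is blue throughout, whereas in the right block bold numbers appear only at 8 and 20 h, and MFA1 and MFA2 are above 0 up to 8 h.

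EtOH was set against SDS at matched times. The log2 difference leaves out the controls, although they are among the 39 libraries of the fit that gave its SE and p-values. Of the 7 genes, 6, 5, 7, 7, 4 and 0 were called higher in EtOH over the 6 times in order, where 12.5%, 7.57%, 4.34%, 4.00%, 5.34% and 8.64% of all genes tested were called higher. None was called lower, and at 20 h 5.20% of all genes tested were. The gap was widest for the a-factor genes at 4 h. MFA2 had 171, 173 and 195 CPM in EtOH, against 26.4, 21.2 and 17.6 CPM in SDS, an 8.23-fold difference (log2 3.04 ± 0.16, adjusted p = 2.02e-16). MFA1 had 92.8, 88.5 and 134 CPM in EtOH, against 13.1, 12.4 and 15.7 CPM in SDS, a 7.67-fold difference (log2 2.94 ± 0.22, adjusted p = 1.27e-12). For STE6, the gene with the smallest gap at 4 h, the difference was 2.09-fold. STE6 missed the limit at 2 h without SDS 2 h replicate 2 (0.99) and at 4 h without EtOH 4 h replicate 3 (0.997), and STE2 missed it at 0.5 h without EtOH 0.5 h replicate 3 (0.97). At 1 h STE2 passed it without SDS 1 h replicate 2 (1.03) or EtOH 1 h replicate 1 (1.04).

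At 8 h the set had split by gene. BAR1 was 2.7-fold, MFA1 6.86-fold, MFA2 3.38-fold and AGA2 4.15-fold higher in EtOH. STE2 had 270, 254 and 260 CPM in EtOH, against 241, 225 and 227 CPM in SDS, a log2 difference of 0.18 with a 95% interval of -0.02 to 0.38. STE6 had a log2 difference of 0.09, with an interval of -0.12 to 0.29. ASG7 had 0.91 and passed the limit without SDS 8 h replicate 2 (1.05) or EtOH 8 h replicate 1 (1.19) or 2 (1.02). By 20 h no member was called in edgeR or in DESeq2. An unadjusted p under 0.05 in edgeR was reached by 3 (share of all genes not given, so no result about the members). STE2 had 240, 205 and 188 CPM in EtOH, against 293, 317 and 287 CPM in SDS (log2 difference -0.50 ± 0.10, adjusted p = 6.04e-05), the libraries not overlapping. STE6 also had the lower level in EtOH (-0.37, adjusted p = 0.00173), and AGA2 the higher one (0.92, adjusted p = 0.000382). Without EtOH 20 h replicate 3, ASG7 had a log2 difference of -1.02 and was called, and without SDS 20 h replicate 1 AGA2 was (1.15).

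Over whole courses, the F test across the 6 times called all 7 members in SDS and 6 in EtOH, where AGA2 missed the size limit (25.0% and 18.1% of all genes tested). All 7 were called when EtOH was tested against SDS over the 6 times (36.4%). Without the 20 h libraries the EtOH course gave 2 members (share of all genes not given, so no result about the members).

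The counts of 3 members were also set against those of STE2 within each library, where scaling between libraries has no effect. The genes were picked with their courses known, so these ratios are a description, and they move with STE2 itself, which had 261 ± 8.22 CPM at 8 h of EtOH, against 644 ± 36.2 CPM in the controls. MFA1 counts were 23.8%, 32.8% and 52.5% of the STE2 counts at 8 h of EtOH, against 10.4%, 12.2% and 11.9% in the controls. MFA2 counts were 42.2%, 55.5% and 74.9% of the STE2 counts at 8 h of EtOH, against 22.9%, 23.1% and 19.7% in the controls. AGA2 showed the same, with 8.83%, 8.93% and 10.3% in EtOH, against 4.09%, 4.03% and 4.22% in the controls. All 3 EtOH libraries lay above the controls for each of the 3 genes, as they did for 95.2% of all other genes tested, so the higher ratio is not particular to them. At 20 h of EtOH MFA2 (25.5% to 32.1%) and AGA2 (5.41% to 7.29%) still lay above the controls, as did 94.8% of all other genes, while MFA1 had 8.61%, 9.12% and 14.2% and overlapped them. In SDS at 8 h the ratio was lower than in every control for MFA1, with 7.03%, 5.56% and 4.81%, and for AGA2, with 2.03%, 2.87% and 2.7%. Of all other genes tested, 0.410% lay below the controls in that comparison. STE2 itself had 35.8% of its control mean there, so a lower ratio needs a larger fall than that of STE2. The share therefore restates the log2 changes of these genes. At 4 h of SDS both ratios overlapped the controls, with 9.23% to 11.8% for MFA1 and 3.57% to 4.37% for AGA2.

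**Figure D4:**
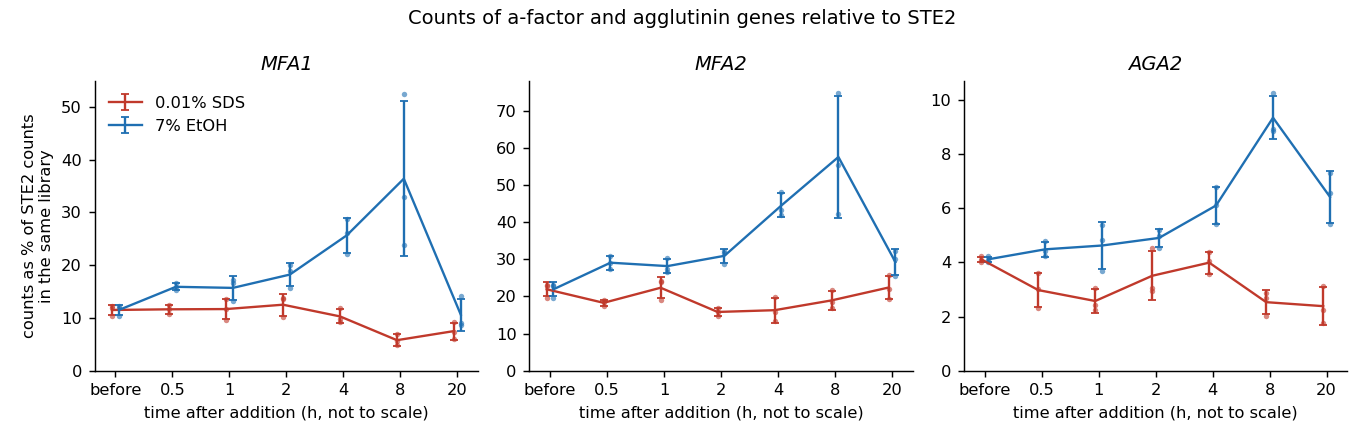
Counts of MFA1, MFA2 and AGA2 as a percentage of the STE2 counts in the same library, in the controls taken before the addition and at 6 times after 0.01% SDS (red) or 7% EtOH (blue). Points are libraries, lines join means and bars are SD (n = 3). In EtOH the percentage is highest at 8 h for all 3 genes, with MFA1 between 23.8% and 52.5%.

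The order of levels per kb also changed with time. MFA2 was highest and ASG7 lowest in all 13 groups. STE2 stood above MFA1 at 8 h of SDS (178 and 121 CPM per kb), whereas at 8 h of EtOH MFA1 had 853 and STE2 201 CPM per kb. Over the 13 group means of log2 CPM, Pearson's r between members ran from 0.796 (MFA1 and ASG7) to 0.992 (STE2 and STE6). These values are descriptive, since all points share the same libraries.

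The genes most like the set were found in the same way. Among 4827 other genes whose mean level reached 20 CPM, the 5 with the highest r with the mean scaled profile of the members were GPA1 (0.986), SST2 (0.976), BEM2 (0.974), AGA1 (0.959) and EOS1 (0.949), over 13 group means. By Spearman's rank correlation GPA1 and SST2 again ranked first and second, while AGA1 ranked 19th and EOS1 fell to a rank of 105.5. GPA1 encodes the Gα subunit of the pheromone receptor pathway, SST2 its GTPase activator, and AGA1 the anchor subunit of a-agglutinin.

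The 5 genes were chosen from these same group means for their likeness to the members. Their changes therefore describe them, and the adjusted p-values from edgeR are no independent test. SST2 had 42.9, 39.1 and 40.5 CPM at 4 h of SDS, against 185, 178 and 204 CPM in the controls (log2 change -2.21 ± 0.13, adjusted p = 1.70e-15). It had 47.6, 43.9 and 52.9 CPM at 20 h of EtOH (log2 change -1.97 ± 0.13), while at 4 h of EtOH its log2 change was -0.19 (adjusted p = 0.200). AGA1, the partner of AGA2, had 38.9, 38.6 and 39 CPM at 4 h of SDS, against 132, 125 and 145 CPM in the controls. Its log2 change there was -1.78 ± 0.15, and at 20 h of EtOH it was -1.34 ± 0.14. BEM2 and EOS1 followed the shape at a smaller size, with largest changes of -0.77 and -0.41, both at 4 h of SDS.

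**Figure D5:**
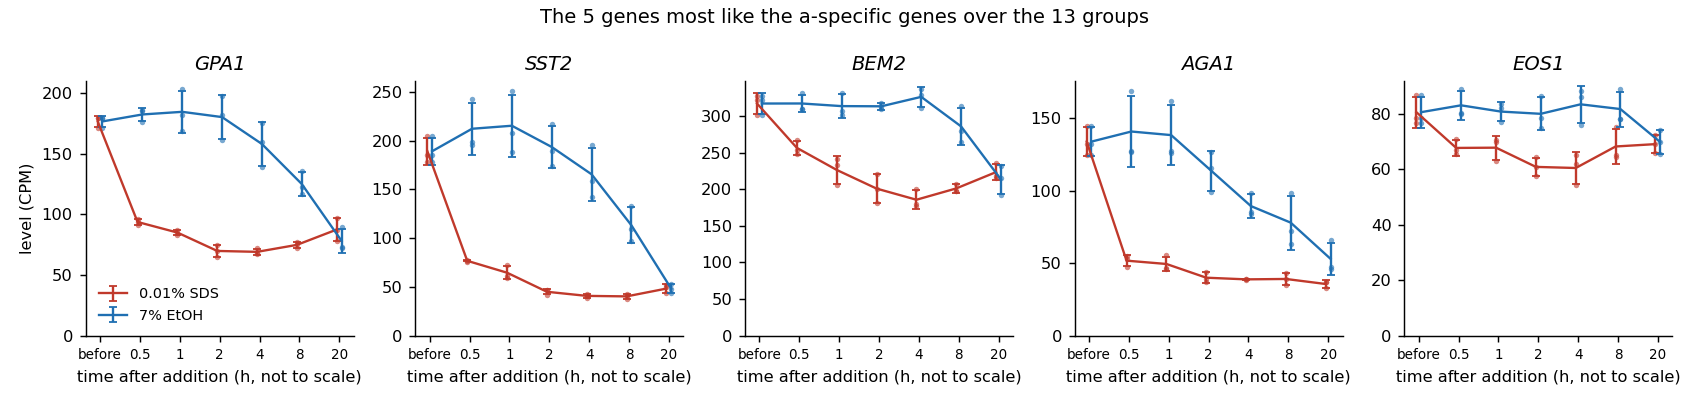
Levels in CPM of the 5 genes whose group means follow the a-specific genes most closely, each panel with its own axis from 0, in the controls taken before the addition and at 6 times after 0.01% SDS (red) or 7% EtOH (blue). Points are libraries, lines join means and bars are SD (n = 3). At 0.5 h of SDS the log2 changes of GPA1, SST2 and AGA1 were -0.91, -1.30 and -1.37, and at 4 h of EtOH -0.16, -0.19 and -0.58, while BEM2 and EOS1 change by less than 1 on the log2 scale at every time.

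Other genes of the mating pathway were read from lists, beside the shares of all genes tested. Shares called lower are given above for each time. Called higher were 8.49%, 5.79%, 5.80%, 7.69%, 4.11% and 2.7% of all genes tested over the 6 SDS times in order, and 0.918%, 1.10%, 1.56%, 3.29%, 7.20% and 9.67% over the 6 EtOH times. Enzymes that process a-factor were not called at any of the 12 times: 0 of 7 (farnesyl transferase RAM1 and RAM2, proteases RCE1, STE24, AXL1 and STE23, methyl transferase STE14), with medians of -0.21 to 0.10 in SDS and -0.40 to 0.07 in EtOH. STE23 had the largest value at 0.5 h of SDS (0.56, adjusted p = 9.52e-07). Kinases and partners shared with other pathways gave 0 of 7 calls at all 12 times as well, with STE11 at 0.85 ± 0.11 at 0.5 h of SDS. In the silencing list, 0 of 4 SIR genes were called, with SIR2 at -0.84 ± 0.15 at 0.5 h of SDS.

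The haploid-specific list, which holds GPA1 and SST2, had 3, 4, 4, 2, 2 and 2 of 10 genes lower over the 6 SDS times. Of all genes tested, 10.6%, 5.56%, 3.67%, 2.79%, 2.03% and 1.97% were. It had 1 gene higher at 0.5 h (8.49%), 4 h (7.69%) and 20 h of SDS (2.7%). GPA1 had a log2 change of -0.91 at 0.5 h of SDS and was called lower from 1 to 20 h, with -1.01 to -1.35. HO, the mating type switching endonuclease, had 10.3 ± 1.79 CPM at 0.5 h of SDS, against 84.4 ± 10.4 CPM in the controls (log2 change -3.03 ± 0.23). At the same time FAR1, which arrests the cycle in response to pheromone, had a log2 change of -1.26 ± 0.12 and SST2 one of -1.30 ± 0.12. RME1, a repressor of meiosis, rose by 1.34 ± 0.15. In EtOH the list gave 0 calls until 20 h, when SST2, HO (-1.21 ± 0.21) and GPA1 (-1.18 ± 0.09) were lower (4.25% of all genes tested).

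Genes of cell fusion and adhesion that pheromone induces had 5, 4, 4, 3, 4 and 5 of 11 lower over the 6 SDS times (10.6%, 5.56%, 3.67%, 2.79%, 2.03% and 1.97% of all genes tested) and 2 of 11 at 20 h of EtOH (4.25%). The largest at 0.5 h of SDS were FIG1 (-1.81 ± 0.59), PRM1 (-1.59 ± 0.21), AGA1 (-1.37 ± 0.14) and FUS1 (-1.31 ± 0.21). PRM3 (-1.36 ± 0.27) and AGA1 were the calls at 20 h of EtOH. FIG1 was near the detection limit, with 0.467 ± 0.267 CPM in SDS, against 1.69 ± 0.401 CPM in the controls.

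Among 8 regulators the only call against the controls was YOX1, a homeodomain repressor that works with Mcm1. It rose by 1.5 ± 0.13 at 0.5 h of SDS, with 72.1 ± 8.95 CPM, against 25.5 ± 4.88 CPM in the controls, and was called at 0.5 to 8 h of SDS and at 1 to 8 h of EtOH. MCM1 itself, chosen after its values were seen, had log2 changes of -0.15 to 0.12 over the 12 times, with adjusted p of at least 0.124. STE12 had -0.60 ± 0.11 at 0.5 h of SDS and, chosen likewise, -0.74 ± 0.11 at 20 h of EtOH.

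Other genes hold the same operator letters. The 7 other genes with both α2 sites in the 500 bases before the start (APL3, SWC5, PBP2, HNT2, GYP8, HSF1 and MPS2) gave 0 calls in edgeR at the 12 times, with log2 changes of -0.71 to 0.57. They were picked after the sequence search, and by adjusted p alone single genes among them passed, such as MPS2 at 0.5 h of SDS (9.82e-06). Genes next to each other, such as GYP8 (YFL027C) and STE2 (YFL026W), may share a site, which was not checked.

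Markers of other cell types were read beside these results. Of the 4 α-specific genes, 3 were tested and only STE3 was called. It was higher from 1 h on in SDS, with log2 changes of 1.01 to 2.08 (2.7% to 7.69% of all genes tested were called higher), and from 4 h on in EtOH, with 2.22 to 2.79 (3.29% to 9.67%), but did not exceed 9.51 CPM in any library. The summed level of the 4 genes was 48.0 to 65.1 CPM in the SDS libraries and 41.1 to 64 CPM in the EtOH libraries, against 46.5 to 52.2 CPM in the controls. The 8 markers of diploid or meiotic cells summed to 53.2 to 114 CPM in SDS and 47.2 to 81.5 CPM in EtOH, against 73.8 to 86.4 CPM in the controls, with IME4 at 0 in all libraries. Of its 7 tested genes, IME2 and SPS4 were called lower at 0.5, 1 and 2 h of SDS (10.6%, 5.56% and 3.67% of all genes tested), NDT80 and DIT1 higher at 4 h (7.69%) and DIT1 higher at 8 h (4.11%). In EtOH IME2 was lower at all 6 times (1.25% to 4.25%), and SPO13 and DIT1 were higher at 8 h (7.20%) and 20 h (9.67%). The α genes at the mating type loci are listed at both MAT and HML as near-identical copies, so their values are uncertain, zeros included. MATALPHA1 and HMLALPHA1 had 0 counts in all 39 libraries. MATALPHA2, called higher at 8 h of EtOH (1.01 ± 0.32), had 0.859 to 6.67 CPM. HMRA1, with no a1 gene at MAT beside it in the list, ranged from 20.1 to 51.1 CPM. Which locus its reads came from was not tested. The part of these genes in the a-specific results was not tested.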

How the data were processed

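The deposited table holds raw read counts per gene, made by the authors from poly(A) RNA libraries, per the labels. The submitters' processing notes name build R64 and, without their roles, featureCounts 2.0.1, STAR 2.7.8, Trimmomatic 0.39 and FastQC 0.11.9. How strand and reads with several matches were handled is not stated there or in the labels.

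The 39 libraries were fitted in 1 model of 13 groups with 26 residual degrees of freedom in edgeR 4.0.16 (R 4.3.3). Genes with low counts were removed with filterByExpr, libraries were scaled by TMM, and the quasi-likelihood test was run for 22 comparisons, with p-values adjusted by Benjamini-Hochberg over all 6101 genes in each. A call needed an adjusted p under 0.05 and a log2 change of at least 1 in size. The code was tested on simulated data. Levels are in CPM, from the TMM-scaled library sizes, and errors of log2 changes are SE. DESeq2 1.42.0, other scaling, no filter, no size limit, a replicate block, the 6 libraries of a comparison alone and leaving out each library were the alternatives. Pairs of equally numbered libraries shared deviations in part but not throughout. The main fit did not use the numbers to pair samples and treated the libraries as independent.

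All 7 members are named. From each other list the text names up to 4 genes with the largest changes at the time with most calls in each stress, and the 5 genes most like the members come from Pearson's r. The members and lists were chosen with earlier results of these data known. Sequences were read from the RefSeq genome of build R64. Of the 7127 features, 6047 matched the reference annotation. Replicates are labelled as biological. Libraries of other strains were not used here.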

Additional observations from a re-analysis of the deposited data

Results flagged for a closer look

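Differences between time points within a stress, tested in edgeR with Benjamini-Hochberg adjustment, picked out 9 results. In SDS at 4 h against 0.5 h the log2 differences were -1.15 for STE2, -1.15 for BAR1, -1.33 for MFA1 and -1.31 for MFA2. In SDS at 20 h against 4 h they were 1.16 for STE2 and 1.62 for MFA2. In EtOH at 20 h against 4 h they were -1.06 for BAR1, -2.25 for MFA1 and -1.54 for MFA2.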

How the results depend on the processing

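DESeq2, size factors of DESeq2 in edgeR and the replicate block changed no count of called members by more than 1.5 times. Without the size limit the counts were 3 at EtOH 2 h (12.3% of all genes tested were lower) and 6 at EtOH 4 h (20.5% lower, 17.7% higher). They were 4 at EtOH 8 h and 3 for EtOH against SDS at 20 h. Between times they were 6 for SDS 20 h against 4 h, 3 for EtOH 4 h against 0.5 h and 6 for EtOH 20 h against 4 h. Shares without the size limit are given only at EtOH 2 h and 4 h, so the other counts are no result about the members. The F test over the EtOH course gave 2 without 20 h (share of all genes not given, so no result about the members). With the replicate block AGA2 at EtOH 2 h was -0.00293, and with only the 6 libraries compared MFA1 in EtOH against SDS at 20 h was 0.0130; the cause was not tested. Cultures were split into aliquots for SDS and EtOH, so libraries from the same culture are related by design. The numbers point to partial pairing: 33 of 39 libraries correlated best with their own number, and 72 of 234 equally numbered pairs had a correlation over 0.1. The main fit treated all libraries as independent, so its p-values do not allow for any pairing. Only the replicate block used the numbers.

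Leaving out each library in turn gave 4 to 6 called members at SDS 1 h, 2 to 4 called members at EtOH 8 h, 0 to 1 for EtOH against SDS at 20 h and 2 to 5 for EtOH 20 h against 4 h. The largest of these came without EtOH 4 h replicate 1 (5), and without EtOH 20 h replicate 3 it was 4. For EtOH against SDS at 20 h, 1 was called without EtOH 20 h replicate 3 or SDS 20 h replicate 1. For some members the sign turned: AGA2 ran from -0.0153 to 0.102 at EtOH 0.5 h, -0.109 to 0.239 at 1 h, -0.133 to 0.147 at 2 h, -0.277 to 0.0785 at 4 h and -0.312 to 0.0436 for EtOH 4 h against 0.5 h. MFA2 ran from -0.141 to 0.296 at EtOH 8 h and -0.0295 to 0.0656 for EtOH 4 h against 0.5 h. MFA1 ran from -0.0904 to 0.232 in the same comparison and -0.198 to 0.11 for EtOH against SDS at 20 h, where ASG7 ran from -1.02 to 0.211. Depth limits ASG7 and AGA2 most: 3 counts correspond to 0.966 CPM in the smallest library and 0.142 CPM in the largest.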
